A study of Homo sapiens with 12 samples.

Results

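The CLK and SRPK families and PRPF4B are the protein kinases best known for phosphorylating splicing factors. The 7 genes CLK1, CLK2, CLK3, CLK4, SRPK1, SRPK2 and PRPF4B were taken by gene symbol from arrays of 22411 named genes, and 429 of the 913055 exon and junction probe sets of the arrays carried one of these symbols. Each gene had 1 transcript cluster, which is the gene-level summary of the array. All samples were HEK293T, a cultured line of human embryonic kidney origin with SV40 large T antigen, which had received a lentivirus and been kept under puromycin. The labels name the knockdown hairpin by different numbers in the title and the source. The lines were made with clones of the MISSION TRC library. One line carried a short hairpin RNA against PPIL3 (knockdown, KD, 3 arrays) and the other carried a scrambled hairpin (SCR, 3 arrays). Both lines had thus been through the virus and the drug, and a hairpin cannot be told apart from the line that carries it. Labelled target was hybridized to the Affymetrix Human Transcriptome Array 2.0, and all values are log2 signals after RMA, which equalizes the arrays and combines the probes of a feature by a robust fit. Differences are knockdown minus SCR.

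PPIL3 encodes a cyclophilin made of little more than the isomerase domain, which is found in spliceosomes. Its gene-level signal was 7.30, 7.26 and 7.28 on the knockdown arrays and 7.75, 7.81 and 7.81 on the SCR arrays, so that the groups did not overlap. PPIL3 fell by 0.51 (SE 0.030, limma adjusted p = 0.0050, or 0.045 with the replicate number as a block). It missed the threshold when SCR array 2 (adjusted p = 0.053) or SCR array 3 (0.080) was left out, and when the variances were not moderated (0.071). Of the kidney line markers, PAX2, VIM, NEFM, NEFL and LHX1 had a cluster of their own, and all 5 lay above the median cluster on every array, with a summed level of 45.4 to 45.8 in the knockdown and 44.8 to 45.0 in SCR. Most of that gap lay in the neurofilament gene NEFM, which averaged 8.84 in the knockdown and 8.14 in SCR. Its part in the kinase values was not tested. Of 14 markers of blood, stromal, endothelial, liver and keratinocyte cells, 7 lay above that median on every array, and their summed level was 82.8 to 83.9 in the knockdown and 83.1 to 83.5 in SCR. The highest value among the markers of other cells was 8.26 (COL1A1), and PTPRC, LYZ, DCN, LUM and ALB lay near 4 on the log2 scale.

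SR proteins bind exons and help the spliceosome choose splice sites, and the serines of their arginine-serine domains are phosphorylated and dephosphorylated as they work. SRPK1 and SRPK2 act mostly in the cytoplasm, where they mark SR proteins for import by transportin-SR (TNPO3). The CLK kinases act in the nucleus, where further phosphorylation releases SR proteins from nuclear speckles, and PRPF4B phosphorylates proteins of the tri-snRNP as the spliceosome assembles. CLK1 and CLK4 are known for transcripts that skip an alternative exon of the kinase gene or keep the introns around it, forms that do not encode an active kinase. The arrays were therefore read at the gene level and then along each gene.

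At the gene level 0 of the 7 kinases passed limma's test at an adjusted p of 0.05, where 0.688% of all 19912 tested genes did (137 genes, or 32 with the replicate number as a block). At an unadjusted p under 0.05 there were 4 kinases, CLK1, CLK4 and PRPF4B on the lower side and SRPK1 on the higher side, where 15.4% of all tested genes (3076) reached that level. CLK1, CLK3 and CLK4 were lower on all 3 knockdown arrays than on any SCR array, as were 9.33% of all tested genes. SRPK1 was higher on all 3 knockdown arrays than on any SCR array, as were 11% of all tested genes. CLK2, SRPK2 and PRPF4B overlapped between the groups. The labels do not say that the replicates came from separate cultures, so these p-values measure only the spread between the arrays.

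**Figure D1:**
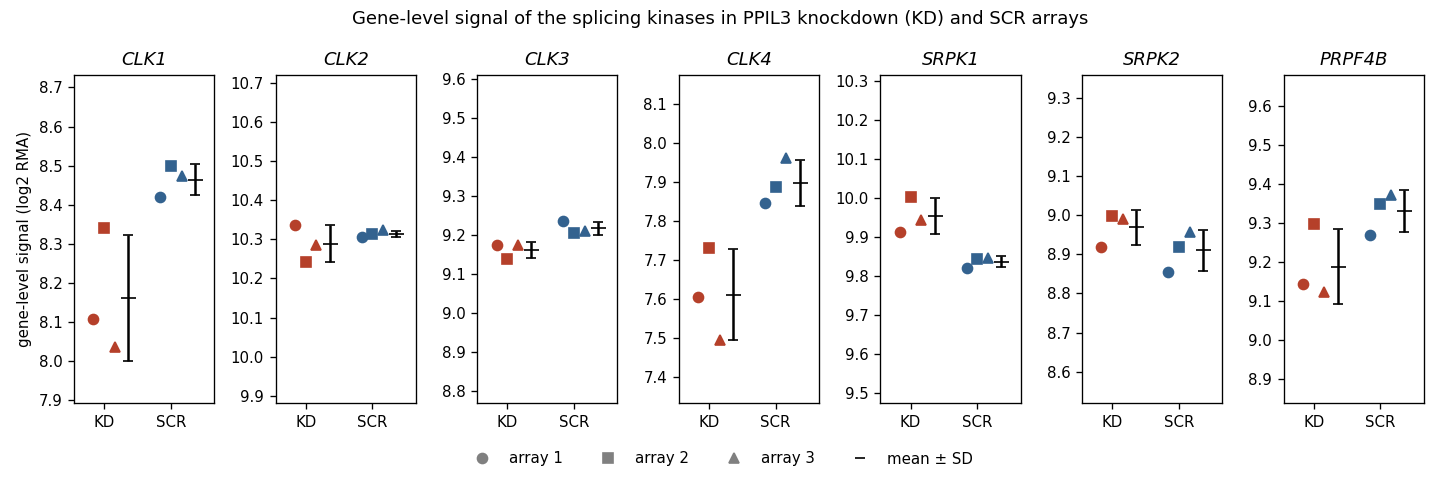
Gene-level signal (log2 RMA, vertical axis, the same span in every panel) of the 7 kinases on the 3 PPIL3 knockdown (KD) arrays and the 3 SCR arrays, with symbols for the array number and bars for the mean ± SD. CLK1 and CLK4 lie lower on every knockdown array, with knockdown array 2 nearest to SCR, and SRPK1 lies higher.

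CLK1, a nuclear dual-specificity kinase of SR proteins, had signals of 8.11, 8.34 and 8.03 on the knockdown arrays and 8.42, 8.50 and 8.47 on the SCR arrays (cluster TC02002666.hg.1). Knockdown array 2 lay closer to the SCR arrays than the other 2 knockdown arrays did, and the groups did not overlap. The means were 8.16 ± 0.16 in the knockdown and 8.46 ± 0.040 in SCR (SD, n = 3 each), a difference of -0.30 (SE 0.078), or -18.9%, with a 95% interval of -0.49 to -0.12 and a limma adjusted p of 0.15. Without knockdown array 2 the difference was -0.39 and the adjusted p 0.049. In the other 14 alternatives of processing and of arrays left out, only array weights gave a call, as described in the closing section.

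CLK4 is the closest relative of CLK1. Its signals were 7.61, 7.73 and 7.50 on the knockdown arrays and 7.84, 7.89 and 7.96 on the SCR arrays (TC05002125.hg.1). Again every knockdown array was below every SCR array, and array 2 was the highest of the knockdown arrays. The means of 7.61 ± 0.12 and 7.90 ± 0.059 (SD, n = 3 each; knockdown, then SCR) differed by -0.29 (SE 0.063), or -18.0%, with a 95% interval of -0.44 to -0.13 and a limma adjusted p of 0.11. When the gene level was the mean of its 36 retained exon probe sets instead, CLK4 differed by -0.32 (SE 0.066) and passed (limma adjusted p = 0.024), and CLK1, over 28, differed by -0.28 (SE 0.075, adjusted p = 0.071).

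PRPF4B, the PRP4 kinase, had 9.14, 9.30 and 9.12 in the knockdown and 9.27, 9.35 and 9.37 in SCR (TC06000035.hg.1). Knockdown array 2 lay inside the range of the SCR arrays, and the other 2 knockdown arrays lay below it. The difference was -0.14 (SE 0.055), or -9.39%, with a 95% interval of -0.27 to -0.011 (limma adjusted p = 0.29).

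SRPK1, the main cytoplasmic SR protein kinase of many cell lines, had 9.91, 10.002 and 9.94 in the knockdown and 9.82, 9.84 and 9.84 in SCR (TC06001668.hg.1). All 3 knockdown arrays were above the SCR arrays. The difference was 0.12 (SE 0.032), or 8.45%, with a 95% interval of 0.040 to 0.19 (limma adjusted p = 0.16). SRPK2, its relative that is also abundant in neurons, had 8.92, 8.998 and 8.99 in the knockdown and 8.85, 8.92 and 8.96 in SCR (TC07001731.hg.1), groups that overlapped. It differed by 0.06 (SE 0.039), with a 95% interval of -0.034 to 0.15 (adjusted p = 0.54), and by 0.03 without SCR array 1.

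CLK2 had 10.34, 10.24 and 10.28 in the knockdown and 10.31, 10.31 and 10.32 in SCR (TC01003311.hg.1), a difference of -0.03 (SE 0.032) with a 95% interval of -0.10 to 0.052 (limma adjusted p = 0.77). With knockdown array 1 left out it was -0.05, and with knockdown array 2 left out -0.0030. The SCR arrays lay inside the knockdown range. CLK3 had 9.17, 9.14 and 9.17 in the knockdown and 9.24, 9.21 and 9.21 in SCR (TC15002801.hg.1). All knockdown arrays were below all SCR arrays, by a small margin, and the difference was -0.06 (SE 0.027), with a 95% interval of -0.12 to 0.0088 (adjusted p = 0.39). RefSeq lists pseudogenes of CLK2, CLK3, SRPK2 and PRPF4B, and an antisense gene that overlaps the start of CLK3. Whether their RNA reaches the probes of these genes was not tested.

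Knockdown array 2 also had the lowest signal of the immediate early genes EGR1 (10.60, 8.60 and 10.14 in the knockdown, 10.79, 9.90 and 9.83 in SCR) and FOS (8.99, 7.58 and 8.65 in the knockdown, 8.63, 8.58 and 8.63 in SCR), which were picked after their values were seen. SCR array 1 stood apart for the amino acid response gene SLC7A11 (8.40, 8.12 and 8.21 in the knockdown, 7.38, 9.40 and 9.48 in SCR). The part of either state in the kinase values was not tested. Without SCR array 1 CLK1, CLK4 and SRPK1 did not pass either. That setting called 9 genes in all, against 137 with every array, so it cannot decide the part of that state.

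CLK1 lies directly beside PPIL3 in the genome, on the same strand. Its start faces the end of PPIL3. Of the 4 genes on each side of CLK1 in the RefSeq table, 5 were tested. BZW1, a translation regulator, had 10.33, 10.40 and 10.33 in the knockdown and 10.27, 10.32 and 10.32 in SCR (difference 0.05, SE 0.033, limma adjusted p = 0.52), higher on every knockdown array by a small margin. NIF3L1, on the far side of PPIL3, had 8.87, 9.09 and 8.99 in the knockdown and 8.90, 8.98 and 8.92 in SCR (difference 0.05, SE 0.058, adjusted p = 0.73). The small RNA pseudogenes RNU6-31P and RNA5SP115 differed by 0.39 (SE 0.13, adjusted p = 0.25) and 0.11 (SE 0.11, adjusted p = 0.70), with overlapping groups. Apart from PPIL3 itself, none of these neighbours passed the test.

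Over the 6 arrays, the genes whose signal ran most like that of CLK1 were ZNF35 (Pearson r = 0.995), UBE3C (0.984), ENTPD7 (0.979), HEXIM1 (0.974) and RNF145 (0.974), of 1081 genes with an SD of at least 0.15 over the arrays. CLK4 came 8th, with r = 0.972, and no other member varied enough to be compared. ZNF35, a zinc finger protein, had 8.17, 8.36 and 8.07 in the knockdown and 8.41, 8.47 and 8.48 in SCR. HEXIM1, an inhibitor of the elongation factor P-TEFb, had 9.28, 9.46 and 9.23 in the knockdown and 9.47, 9.55 and 9.61 in SCR. All 5 were lower on every knockdown array, as were 9.33% of all tested genes, with differences of -0.22 to -0.36. CLK1 itself was lower on every knockdown array, so picking genes by likeness to it favours such genes. None of the 5 passed limma's test (adjusted p = 0.10 to 0.20). These correlations describe 6 points that share their arrays and normalization.

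The promoters of CLK1 and CLK4 are shown because these 2 genes had the largest gene-level differences of the 7. Each line is the 250 bases before a RefSeq start site (GRCh38.p14, minus strand of chr2:200864659-200864908 for CLK1 and of chr5:178627051-178627300 for CLK4), 5′ to 3′. Capitals mark TGACG or its reverse CGTCA, the core of the cyclic AMP response element.
CLK1: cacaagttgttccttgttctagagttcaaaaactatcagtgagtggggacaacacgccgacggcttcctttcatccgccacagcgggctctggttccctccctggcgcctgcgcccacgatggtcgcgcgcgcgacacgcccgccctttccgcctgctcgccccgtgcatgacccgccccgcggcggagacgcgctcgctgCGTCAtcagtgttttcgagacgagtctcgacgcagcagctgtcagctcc
CLK4: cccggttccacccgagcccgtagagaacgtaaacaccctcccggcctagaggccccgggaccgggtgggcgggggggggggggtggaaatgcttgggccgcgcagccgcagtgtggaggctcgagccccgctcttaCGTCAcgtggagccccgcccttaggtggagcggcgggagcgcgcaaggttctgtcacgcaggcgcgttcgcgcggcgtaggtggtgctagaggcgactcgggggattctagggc
Each window held 1 such core, and 21.7% of the 27305 promoters of the same length held 1 or more. Of the windows of the other 5 kinases, 1 of the 2 of CLK3 and 1 of the 4 of SRPK2 also held 1 core, and those of CLK2, SRPK1 and PRPF4B held none. Of the 2 other motifs searched on both strands, the full element TGACGTCA, which contains the core, was in neither (1.77% of all promoters held it). The E box CACGTG was in CLK4, where it shares bases with the core, and in CLK2 (6.49% of all promoters held it). These matches are letters in a window, and no binding was measured.

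Along the genes, 260 exon probe sets and 169 junction probe sets were read, of which 245 and 135 had a mean signal of at least 5 and were retained. The retained probe sets of a gene share its transcripts and the same 6 arrays, and are no replicates of the condition. Of the 380 retained, 0 passed limma's test over all 571167 retained probe sets, where 0.00473% did, and 94 (24.7%) had an unadjusted p under 0.05, where 9.74% of all did. The lowest adjusted p of the 380 was 0.18. Of the 380, 23.7% lay lower on all knockdown arrays than on any SCR array, against 8.08% of all retained probe sets. Another 10.5% lay higher without overlap, against 8.36% of all. By gene, the lower ones were 29 of 53 in CLK4, 18 of 42 in CLK1, 12 of 36 in CLK3, 23 of 73 in PRPF4B, 5 of 50 in CLK2, 2 of 65 in SRPK2 and 1 of 61 in SRPK1. The higher ones were 27 of 61 in SRPK1, 7 of 65 in SRPK2, 2 of 73 in PRPF4B and 1 each in CLK1, CLK2, CLK3 and CLK4. The 49 dimmer probe sets were not tested.

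The probe set numbers ascend with the genome between genes. With genes ordered by exon probe set number, on the strands of the 7 genes, 98.0% to 99.8% of neighbours had ascending RefSeq starts. Ordered by junction number, 97.3% to 98.8% did. The order within a gene was taken from the numbers in the same way and read from the gene's start. The files used here do not place a probe set on an exon or an intron, so that the skipped exon and retained intron forms of CLK1 and CLK4 could not be named.

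**Figure D2:**
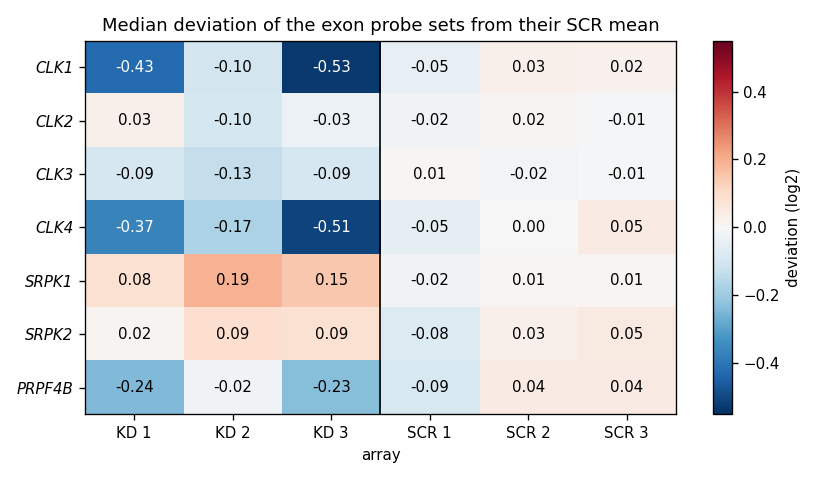
Median over the retained exon probe sets of each kinase of the deviation from the SCR mean (log2, colour and number), for the 3 PPIL3 knockdown (KD) arrays and the 3 SCR arrays. CLK1 and CLK4 are lowest on knockdown arrays 1 and 3, and SRPK1 is above 0 on all 3 knockdown arrays.

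Taken over the exon probe sets of a gene, the arrays kept the picture of the gene level. The median deviation of the 28 CLK1 exon probe sets about the SCR average came to -0.43, -0.10 and -0.53 on the knockdown arrays and -0.05, 0.03 and 0.02 on the SCR arrays. For the 36 of CLK4 it was -0.37, -0.17 and -0.51 in the knockdown and -0.05, 0.0033 and 0.05 in SCR. The 47 of PRPF4B had -0.24, -0.02 and -0.23 in the knockdown and -0.09, 0.04 and 0.04 in SCR. In these 3 genes array 2 was the one nearest to SCR. It was the highest of the 3 knockdown arrays at 34 of 42 retained probe sets of CLK1, 41 of 53 of CLK4 and 51 of 73 of PRPF4B. SRPK1 had 0.08, 0.19 and 0.15 over 41 exon probe sets in the knockdown and -0.02, 0.01 and 0.01 in SCR, with array 2 the farthest from SCR.

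**Figure D3:**
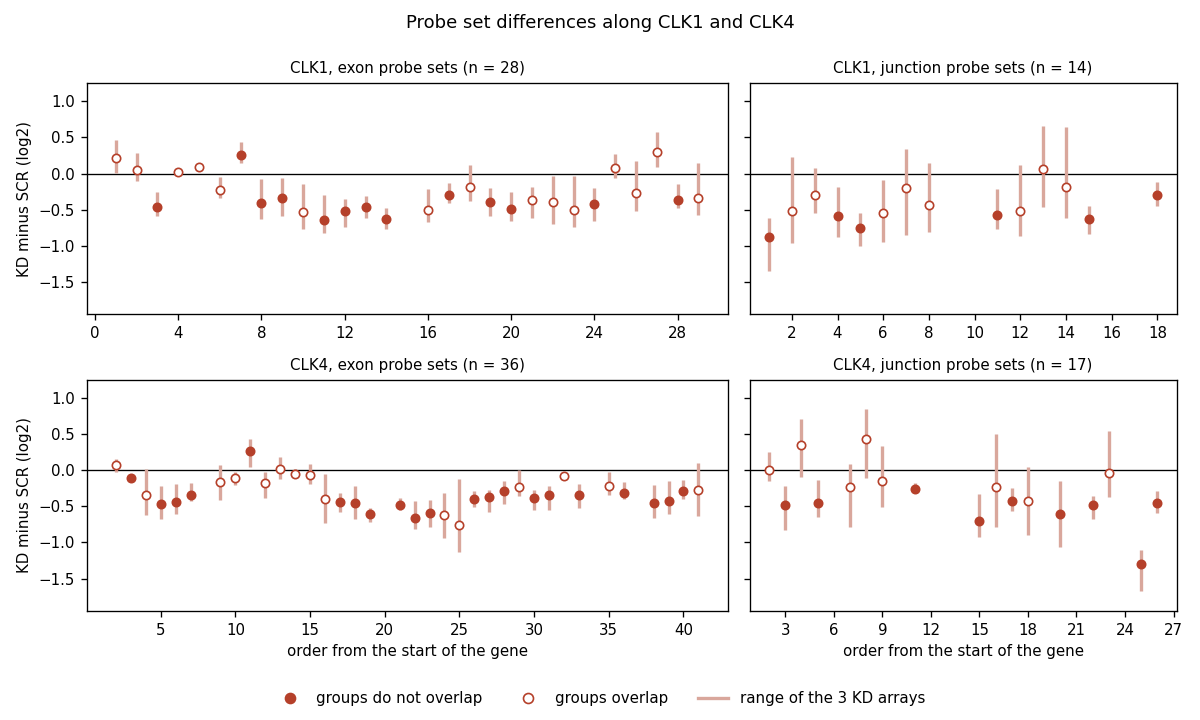
Difference of each retained exon (left) and junction (right) probe set of CLK1 and CLK4 (knockdown minus SCR, log2, vertical axis) by its order from the start of the gene (horizontal axis), with lines for the range of the 3 knockdown arrays around the SCR mean and filled points where the groups do not overlap. Most points lie near -0.4, with points near 0 at the start of both genes, in a run of 7 exon probe sets of CLK4 and elsewhere.

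In CLK1, 21 of 28 exon probe sets and 13 of 14 junction probe sets had a difference below 0, with medians of -0.37 and -0.52. The brightest exon probe set, PSR02042805, had 10.54, 10.77 and 10.49 in the knockdown and 11.02, 10.85 and 10.81 in SCR (difference -0.30, SE 0.11). The brightest junction, JUC02022385, had 11.60, 11.78 and 11.46 in the knockdown and 11.95, 11.90 and 11.87 in SCR (difference -0.29, SE 0.10). In both the groups did not overlap, and array 2 was the highest of the knockdown arrays. The lowest difference belonged to a dim junction near the start, JUC02022402, with 4.88, 4.83 and 4.15 in the knockdown and 5.56, 5.51 and 5.42 in SCR (-0.88, SE 0.19, limma adjusted p = 0.28). The highest belonged to the dim exon probe set PSR02042795, at 0.30 (SE 0.20), whose groups overlapped (5.63, 5.96 and 5.47 in the knockdown, 4.995, 5.48 and 5.66 in SCR).

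The splicing index of a probe set is its signal less its gene's average on that array, taken over the retained exon probe sets. A shift of equal size at all probe sets of a gene thus drops out. A shift that varies with signal level does not, and the part of signal level in the index was not tested. Over all genes, 0% of 565705 probe sets passed limma's test of the index (7.42%, or 41977 probe sets, had an unadjusted p under 0.05). Of the 380 probe sets of the kinases 0 passed, with a lowest adjusted p of 0.49, and 50 (13.2%) had an unadjusted p under 0.05. By gene these were 18 of 42 in CLK1, 10 of 53 in CLK4, 9 of 73 in PRPF4B, 5 of 61 in SRPK1, 3 of 50 in CLK2, 3 of 65 in SRPK2 and 2 of 36 in CLK3. limma's diffSplice, which pools the spread over all probe sets of a gene, called 5 of the 380 and 0.817% of all probe sets. They were JUC05015070 and JUC05015087 of CLK4, JUC01027013 of CLK2, and JUC06009390 and PSR06019829 of SRPK1.

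In CLK1 the probe sets with the smallest index p were PSR02042826, second from the start, and PSR02042813, in the middle of the order. PSR02042826 had 7.06, 7.39 and 7.01 in the knockdown and 6.97, 7.20 and 7.16 in SCR. Its signal overlapped between the groups while the gene was lower, and its index differed by 0.32 (SE 0.071, limma adjusted p = 0.53). PSR02042813 had 8.23, 8.76 and 8.26 in the knockdown and 9.04, 9.06 and 9.08 in SCR, an index difference of -0.37 (SE 0.087, adjusted p = 0.55). Of the first 7 exon probe sets of CLK1, chosen after their values were seen, 5 had a difference above 0, with a median of 0.04, and 6 had an index that was higher on every knockdown array. PSR02042817 among them had 6.98, 6.93 and 7.23 in the knockdown and 6.57, 6.88 and 6.92 in SCR. PSR02042821, also among the first 7, ran the other way, with 9.39, 9.69 and 9.35 in the knockdown and 9.87, 10.06 and 9.88 in SCR. It and PSR02042818 (difference -0.23, SE 0.10), the 2 below 0, were the brightest of the first 7. The next 16 retained exon probe sets, from PSR02042816 to PSR02042798, all had a difference below 0, with a median of -0.44 and a range of -0.64 to -0.18. PSR02042797, which follows them, had a difference of 0.08 (SE 0.12) and an index that was higher on every knockdown array.

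In CLK4, 33 of 36 exon probe sets and 15 of 17 junction probe sets had a difference below 0, with medians of -0.35 and -0.43. The brightest exon probe set, PSR05029587 near the start, had 10.59, 10.55 and 10.54 in the knockdown and 10.62, 10.72 and 10.68 in SCR, a difference of -0.11 (SE 0.077). The brightest junction, JUC05015078, had 10.73, 10.94 and 10.63 in the knockdown and 11.21, 11.20 and 11.17 in SCR, a difference of -0.43 (SE 0.10). Both were lower on every knockdown array. A dim junction near the end, JUC05015070, had 4.24, 4.78 and 4.80 in the knockdown and 5.38, 6.27 and 6.08 in SCR, the lowest difference of the gene at -1.30 (SE 0.25, limma adjusted p = 0.25) with an index difference of -0.99 (SE 0.25, adjusted p = 0.56, diffSplice adjusted p = 0.00042). The highest, 0.43 (SE 0.33), was that of another dim junction, JUC05015087, whose groups overlapped (5.35, 4.69 and 5.65 in the knockdown, 4.67, 4.30 and 5.44 in SCR, diffSplice adjusted p = 0.021).

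A run of 7 neighbouring exon probe sets of CLK4, from PSR05029581 to PSR05029574, chosen after their values were seen, had differences of -0.18 to 0.27 with a median of -0.07. The 4 before it had -0.47 to -0.35 and the 10 after it -0.76 to -0.40. Values nearer 0 also lay outside the run, as at PSR05029594 (0.07, SE 0.085) and PSR05029587 (-0.11), which lie nearer the start. Over the run, the median deviation from SCR came to -0.09, -0.03 and 0.01 on the knockdown arrays and -0.08, 0.05 and 0.08 on the SCR arrays. Mean signals were 5.93 to 8.06 in the run, 7.79 to 9.79 in the 4 before it and 6.05 to 10.3 in the 10 after it. The part of signal level in these differences was not tested. PSR05029578 in the run had the smallest index p of all 380 probe sets, with 7.84, 7.95 and 7.55 in the knockdown and 7.53, 7.54 and 7.47 in SCR. Its signal was higher on every knockdown array, and its index differed by 0.58 (SE 0.086, unadjusted p = 0.00028, limma adjusted p = 0.49). PSR05029566, past the run, had 9.20, 9.37 and 8.996 in the knockdown and 9.71, 9.79 and 9.86 in SCR, and an index difference of -0.28 (SE 0.070, adjusted p = 0.56).

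PRPF4B had differences below 0 at 41 of 47 exon and 19 of 26 junction probe sets, with medians of -0.16 and -0.20. Its brightest exon probe set, PSR06000297, had 12.09, 12.13 and 12.03 in the knockdown and 12.26, 12.33 and 12.27 in SCR (difference -0.21, SE 0.078). Its brightest junction, JUC06000146, had 12.11, 12.22 and 12.08 in the knockdown and 12.25, 12.29 and 12.27 in SCR (difference -0.13, SE 0.079). Neither pair of groups overlapped. The extremes were dim junctions, JUC06000126 at -0.65 (SE 0.19) and JUC06000136 at 0.40 (SE 0.19).

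The 4 exon probe sets after the brightest one of PRPF4B, PSR06000298 to PSR06000302, again chosen after their values were seen, had differences of 0.16 to 0.24. The highest exon difference of the gene, 0.25, lay outside these 4. The 7 before them had -0.34 to -0.07, and the 6 after them -0.28 to -0.03. Mean signals were 6.66 to 10.2 in these 4, 7.50 to 12.2 in the 7 before and 8.81 to 10.9 in the 6 after. The part of signal level was not tested here either. PSR06000298 had 6.87, 6.96 and 6.86 in the knockdown and 6.82, 6.58 and 6.58 in SCR, and PSR06000302 had 6.81, 6.91 and 6.60 in the knockdown and 6.67, 6.58 and 6.42 in SCR. These 2 had the smallest index p of the gene, with index differences of 0.36 (SE 0.11) and 0.34 (SE 0.10) and limma adjusted p-values of 0.59 and 0.60. Toward the end of the gene, 8 probe sets, also chosen after their values were seen, from PSR06000321 to PSR06000329 had differences of -0.11 to 0.06.

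**Figure D4:**
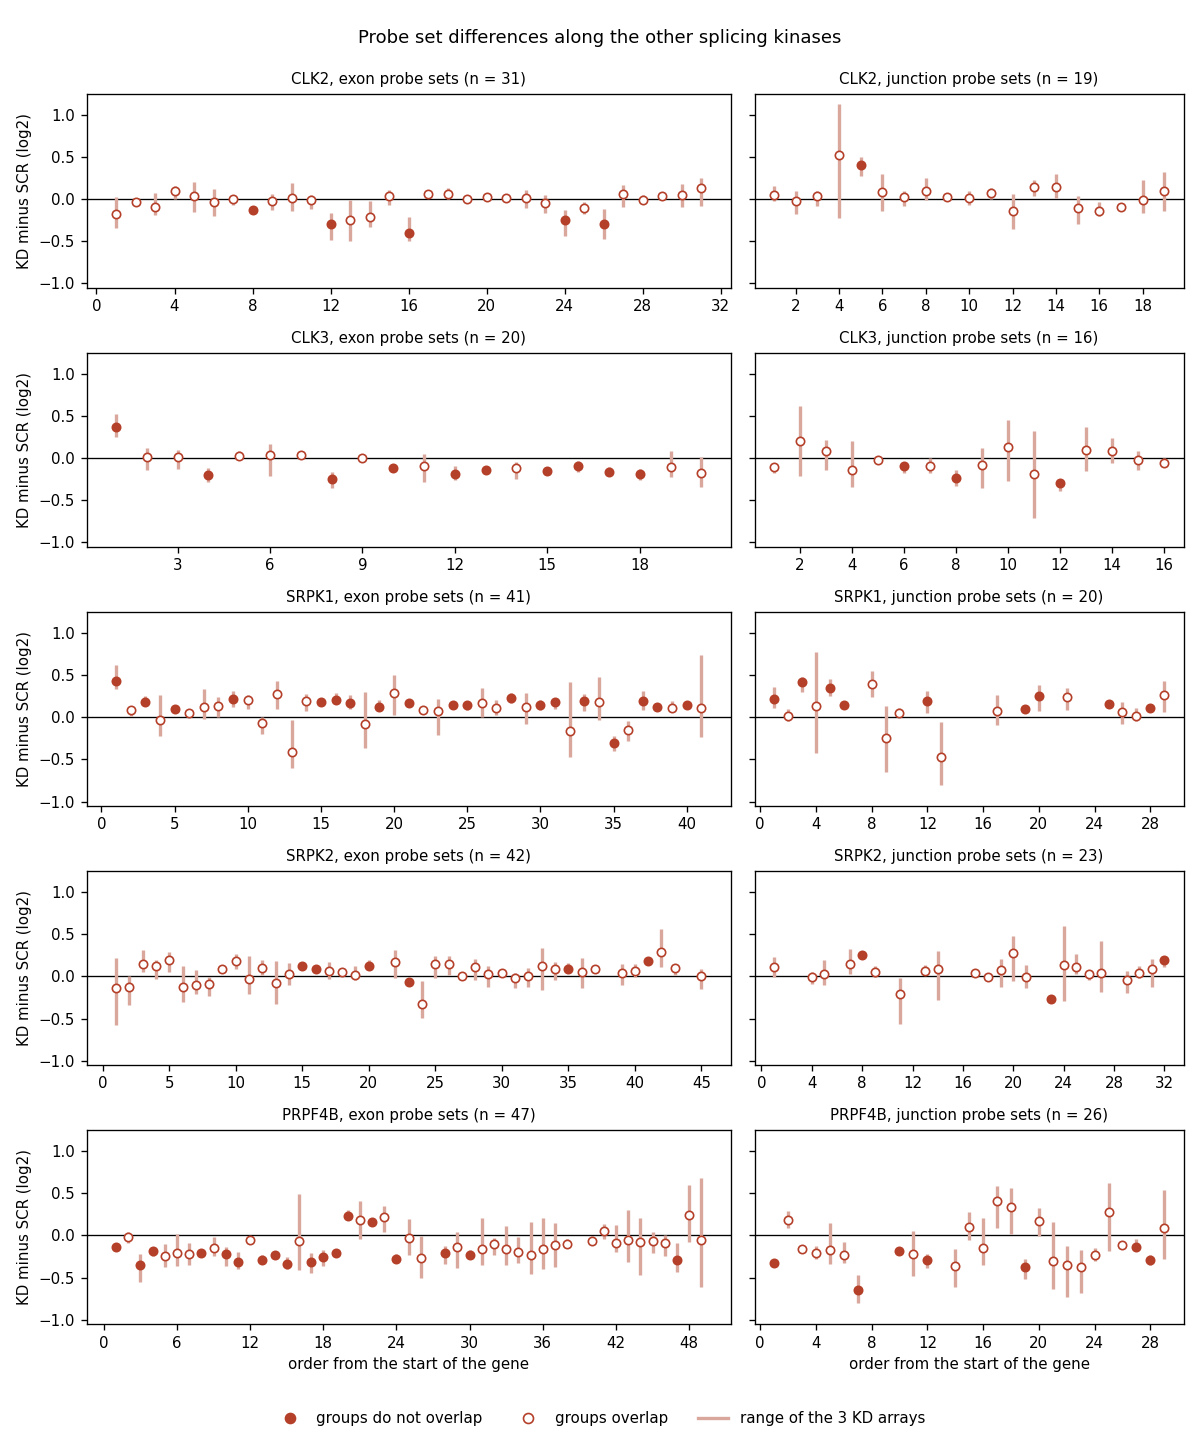
Difference of each retained exon (left) and junction (right) probe set of CLK2, CLK3, SRPK1, SRPK2 and PRPF4B (knockdown minus SCR, log2, vertical axis) by its order from the start of the gene (horizontal axis), with lines for the range of the 3 knockdown arrays around the SCR mean and filled points where the groups do not overlap. SRPK1 lies mostly just above 0, and CLK2 and SRPK2 lie about 0. PRPF4B lies mostly below 0, with exon probe sets above it in a run of 4 and elsewhere.

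SRPK1 had differences above 0 at 34 of 41 exon and 18 of 20 junction probe sets, with medians of 0.14 for both kinds. Its brightest exon probe set, PSR06019845, had 13.45, 13.39 and 13.46 in the knockdown and 13.38, 13.32 and 13.30 in SCR (difference 0.10, SE 0.076), and its brightest junction, JUC06009383, had 12.72, 13.03 and 12.94 in the knockdown and 12.63, 12.63 and 12.67 in SCR (difference 0.25, SE 0.10). All knockdown values of both were above the SCR values. PSR06019850, at the start of the gene, had the highest difference, with 8.86, 9.15 and 8.86 in the knockdown and 8.52, 8.48 and 8.58 in SCR (0.43, SE 0.10, limma adjusted p = 0.31). PSR06019803 ran against the gene, with 6.98, 7.16 and 7.08 in the knockdown and 7.37, 7.39 and 7.37 in SCR, and an index difference of -0.41 (SE 0.063, unadjusted p = 0.00032, adjusted p = 0.50). The lowest difference was that of the dim junction JUC06009390, whose groups overlapped, at -0.48 (SE 0.19, diffSplice adjusted p = 0.010).

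SRPK2 lay close to 0, with medians of 0.06 over 42 exon and 0.05 over 23 junction probe sets. Its brightest junction, JUC07013168, had 12.93, 12.91 and 12.92 in the knockdown and 12.81, 12.87 and 12.95 in SCR, groups that overlapped. Its brightest exon probe set, PSR07026868, was higher on every knockdown array (11.50, 11.58 and 11.47 against 11.31, 11.42 and 11.43 in SCR, difference 0.13, SE 0.082). The smallest index p belonged to JUC07013162 (index difference -0.32, SE 0.092) and PSR07026864 (-0.38, SE 0.12), and the highest difference was that of PSR07026842, at 0.29 (SE 0.15).

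CLK2 had medians of -0.0043 over 31 exon and 0.03 over 19 junction probe sets. Its brightest exon probe set, PSR01051397, had 12.60, 12.46 and 12.59 in the knockdown and 12.57, 12.39 and 12.39 in SCR, and its brightest junction, JUC01027014, had 13.06, 12.88 and 13.04 in the knockdown and 12.92, 13.00 and 12.96 in SCR. The groups overlapped in both. PSR01051382 had the lowest difference, with 9.93, 9.64 and 9.65 in the knockdown and 10.13, 10.17 and 10.10 in SCR (-0.40, SE 0.10, index adjusted p = 0.54). The neighbouring junctions JUC01027012 and JUC01027013 differed by 0.40 (SE 0.13) and 0.53 (SE 0.33). JUC01027012 was higher on every knockdown array (9.40, 9.56 and 9.63 against 8.86, 9.23 and 9.30 in SCR), while JUC01027013 spread over 5.78, 7.13 and 6.68 in the knockdown and 6.06, 5.66 and 6.29 in SCR.

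CLK3 had medians of -0.11 over 20 exon and -0.07 over 16 junction probe sets. Its brightest exon probe set, PSR15005985, had 13.00, 13.01 and 13.09 in the knockdown and 13.01, 12.96 and 13.04 in SCR, groups that overlapped, and its brightest junction, JUC15014063, differed by -0.10 (SE 0.078). PSR15005977, the first of the gene, had the highest difference, with 6.51, 6.24 and 6.32 in the knockdown and 6.20, 5.82 and 5.94 in SCR (0.37, SE 0.13, index adjusted p = 0.57). JUC15014069 had the lowest, with 10.54, 10.55 and 10.41 in the knockdown and 10.82, 10.73 and 10.84 in SCR (-0.30, SE 0.084, index adjusted p = 0.61).

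**Figure D5:**
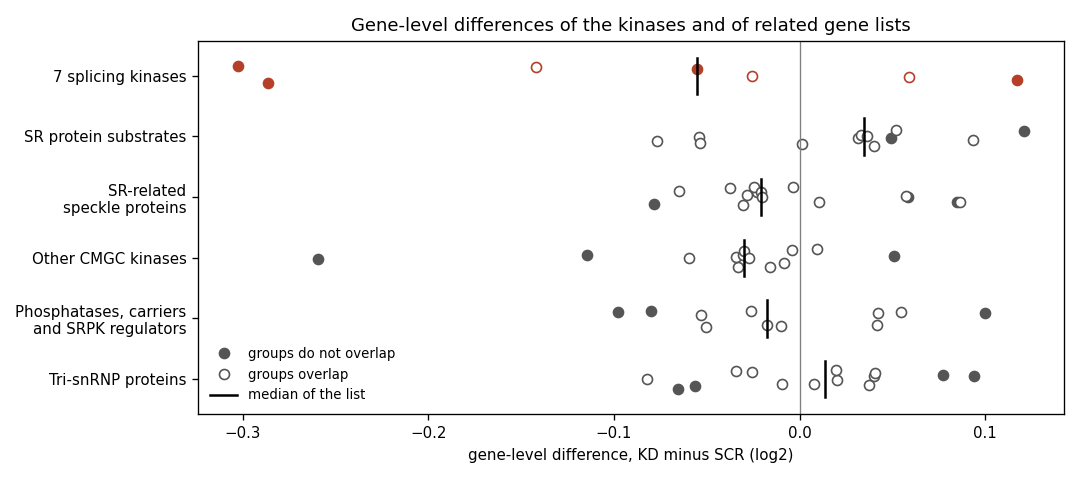
Gene-level difference (knockdown minus SCR, log2, horizontal axis) of the 7 kinases and of the tested members of 5 related lists (rows), with filled points where the groups do not overlap and bars for the median of each list. CLK1, CLK4 and HIPK2 lie farthest to the left.

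The substrates and partners of these kinases were read at the gene level. Of the 14 SR proteins listed, 12 had a tested cluster of their own, and 0 passed in either direction, with a median of 0.03, against a median of -0.0045 over all 19912 genes. TRA2B, a splicing activator, had 9.64, 9.72 and 9.68 in the knockdown and 9.55, 9.54 and 9.58 in SCR, and was higher on every knockdown array (difference 0.12, SE 0.032, limma adjusted p = 0.15). SRSF12 differed by 0.09 (SE 0.045). Of 15 tested SR-related speckle proteins 0 passed in either direction (median -0.02), and the 2 with the largest difference were the splicing coactivator SRRM1 and the speckle protein BCLAF1, at 0.09 and 0.08.

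Of 13 other tested CMGC kinases, 0 passed, with a median of -0.03. HIPK2, a kinase of the p53 pathway, had 10.35, 10.32 and 10.11 in the knockdown and 10.40, 10.58 and 10.56 in SCR, lower on every knockdown array (difference -0.26, SE 0.077, limma adjusted p = 0.19). HIPK1, its relative, differed by -0.11 (SE 0.051). Of 11 tested phosphatases, carriers and SRPK regulators, 0 passed (median -0.02), with the phosphatase subunit PPP1CC at 0.10 and the kinase AKT1 at -0.10. Of 14 tri-snRNP proteins, the setting in which PRPF4B works, 0 passed (median 0.01), with SNRNP27 at 0.09 and PRPF6 at -0.08.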

How the data were processed

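RNA of 6 arrays (3 PPIL3 knockdown, 3 SCR) was summarized in 2 tables, each with 6 of the 12 samples. Their 2995 shared rows were identical between same-named samples, so each pair counted as a single array. Per the submitters' processing notes, the authors summarized the probes with RMA in Affymetrix Expression Console and deposited log2 values. The study's methods name the Transcriptome Analysis Console for splicing events, in a passage that describes the PPIH knockdown arrays. Output of that console was not used here. Versions and genome build: not given in the sources used here. Since RMA equalizes the arrays, a shift common to most RNAs is not visible. The number of arrays limits the precision.

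Older symbols were replaced by those of RefSeq (GRCh38.p14), where PRPF4B is PRP4K. A gene was named only from a cluster with a single symbol, and the brightest stood for it. limma 3.58.1 (lmFit, eBayes, two-sided, R 4.3.3, statmod 1.5.0, data.table version 1.17.8) was run on 19912 genes, 571167 probe sets and 565705 splicing indices whose mean signal reached 5. Benjamini-Hochberg adjustment ran over each whole table, at a threshold of 0.05. The index needed at least 3 retained exon probe sets in a gene. The scripts were tested on simulated data. Python 3.11.15, pandas 2.3.3, numpy 2.4.6 and matplotlib 3.10.9 were used.

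The named features were every kinase cluster, and in each kinase the brightest exon and junction probe sets, the 2 with the smallest index p and those with the highest and lowest difference. Further ones were the 2 largest differences in each related list, the 4 genes on each side of CLK1 and the 5 genes most like it. PSR02042797, PSR02042817, PSR02042818 and PSR02042821 of CLK1, PSR05029594 of CLK4, the runs of neighbouring probe sets, EGR1, FOS and SLC7A11 fell outside this rule. They were picked after their values were seen. The members and lists were chosen with earlier results of these data known.

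Both groups share replicate numbers. Deviations of same-numbered arrays from their group means correlated at 0.34, 0.16 and 0.14, but knockdown array 2 and SCR array 3 correlated at 0.22. Whether the numbers pair the arrays is thus not settled. The main fits do not pair them, and the block by number is given as an alternative. Alternatives were the block, other filters, normalization, moderation, array weights, gene levels, diffSplice and each array left out.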

Additional observations from a re-analysis of the deposited data

How the results depend on the processing

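The 7 gene-level differences kept their direction in all 105 combinations of kinase and alternative, of which 99 kept their side of the threshold and 6 passed it. The block, the signal filters, the moderation settings and the use of every cluster with a symbol leave the difference itself unchanged. In these the direction was fixed in advance. Limma's array weights called 4 kinases, with CLK1 at -0.43 (adjusted p = 0.0016), CLK4 at -0.39 (0.0019), PRPF4B at -0.22 (0.0034) and SRPK1 at 0.10 (0.0066). That setting called 5967 genes in all, against 137, with weights of 0.37, 0.22 and 4.84 for the knockdown arrays and 0.42, 3.56 and 1.68 for the SCR arrays, so it rests mostly on a few arrays. The mean of exon probe sets called 1 kinase, CLK4. Leaving out an array called 0 to 1 kinases at the gene level, the 1 being CLK1 without knockdown array 2, and 0 to 0 at the level of probe sets and of the splicing index. Trend and robust moderation called 1 probe set, PSR02042809 of CLK1, at -0.63 (adjusted p = 0.049), and diffSplice called 5. With the numbers taken as pairs, the replicate block called 0 kinases, 0 of their probe sets and 0 of their indices, and 32 genes against 137 over the whole table. All genes called were 200 after another quantile normalization, 4 without moderation, 481 with exon probe set means, and 1 to 68 with an array left out. All probe sets called were 27, against 0 to 623 in the alternatives.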
